A study of Mus musculus with 2 samples.

Results

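The genes described here are 10 genes of the Nodal and BMP pathways and the Id family: Nodal, Lefty1, Lefty2, Tdgf1, Bmp4, Bmp7, Smad7, Id1, Id2 and Id3. They were chosen by name from 22342 protein-coding genes with a transcription start site (TSS) on chromosomes 1 to 19 and X, and their reads were counted within 500 bases and within 2 kb of the TSS, along the gene, and against the level of the surrounding region. Msl1 and Nsl1 (the latter also called Kansl1) are subunits of the MSL and NSL complexes, which share the histone H4 lysine 16 acetyltransferase Mof. Chromatin bound by each of them was sequenced in mouse embryonic stem cells (mESCs). There was 1 library with the anti-Msl1 antibody 3208 and 1 library with the anti-Nsl1 antibody 3130, from the same kind of cells: wild type E14 mESCs of the 129P2/OlaHsd background at passage 26, a single male cell line that was kept on feeder cells and passaged without them before fixation with formaldehyde. No treated, depleted or second cell population was part of the comparison, so it sets 2 antibodies side by side within 1 condition.

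Nodal is a TGF-beta family ligand that signals through activin receptors, with Tdgf1 (Cripto) as co-receptor, to Smad2 and Smad3, and Lefty1 and Lefty2 are secreted antagonists that Nodal signalling itself induces. Bmp4 and Bmp7 are ligands of the BMP branch, which signals to Smad1, Smad5 and Smad9, and Id1, Id2 and Id3 are its classical targets, encoding helix-loop-helix proteins without a DNA-binding domain that hold back differentiation factors. Smad7 is an inhibitory Smad, induced by both branches, that blocks the receptors. In mESCs the BMP and Id arm is known for its role in self-renewal and the Nodal arm for keeping cells ready to differentiate.

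The deposited files hold 1 line per aligned read, 23888517 reads of 50 bases for Msl1 and 26084098 reads of 36 bases for Nsl1. In the Msl1 library 18.3% of the nuclear reads repeated a position and strand, and in the Nsl1 library 4.56% did, so 1 read was kept of each. This left 19483142 Msl1 and 24883001 Nsl1 reads. All values below are the number of these reads per base in a window divided by the number per base from 5 to 50 kb on both sides of the same TSS in the same library, called the local level. A value of 1 therefore stands for no more reads than in the surroundings. Intervals in brackets are exact 95% intervals (Clopper-Pearson) and cover counting error only, and with 1 library per antibody no p-value between samples can be given. Read length, library kit and repeated reads differ between the libraries together with the antibody and cannot be told apart from it. Nor can the share of cells in which a site is bound be told apart from the amount bound per cell. At 3 defining genes of mESCs, within 2 kb of the TSS, the Msl1 level was 3.60 times the local level at Pou5f1, 2.47 times at Nanog and 4.12 times at Sox2, and the Nsl1 level was 1.65, 1.51 and 1.59 times. Reads at 3 TSSs do not test the labelled cell type.

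Promoter sequences frame the range of values. Read 5′ to 3′ on the strand of the gene in mm9, they run from 250 bases before to 49 bases after the first base of the gene. They are shown for the genes at the ends of the ranks by ratio within 500 bases of the TSSs used. Id2 had the highest ratio in both libraries, Lefty2 the lowest Msl1 ratio and Nodal the lowest Nsl1 ratio. From its RefSeq start, given below, Id3 had a lower Nsl1 ratio than Nodal. Capitals mark matches on either strand to any of 6 short motifs, namely TATAAA (the TATA box), CCAAT (a common promoter element), GGGCGG (the GC box), CAGAC (a core of Smad-binding sites), GGCGCC (a GC-rich Smad site) and AATNCACA (the Foxh1 type). The Id2 promoter lies on the minus strand at chr12:25780908-25781207, that of Lefty2 on the plus strand at chr1:182822989-182823288, and that of Nodal on the plus strand at chr10:60880470-60880769.
Id2: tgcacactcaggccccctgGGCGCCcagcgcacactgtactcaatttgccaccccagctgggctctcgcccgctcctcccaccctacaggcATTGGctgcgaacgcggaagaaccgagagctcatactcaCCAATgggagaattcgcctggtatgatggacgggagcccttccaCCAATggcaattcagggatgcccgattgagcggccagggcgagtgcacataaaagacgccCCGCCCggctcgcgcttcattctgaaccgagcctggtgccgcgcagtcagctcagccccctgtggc
Lefty2: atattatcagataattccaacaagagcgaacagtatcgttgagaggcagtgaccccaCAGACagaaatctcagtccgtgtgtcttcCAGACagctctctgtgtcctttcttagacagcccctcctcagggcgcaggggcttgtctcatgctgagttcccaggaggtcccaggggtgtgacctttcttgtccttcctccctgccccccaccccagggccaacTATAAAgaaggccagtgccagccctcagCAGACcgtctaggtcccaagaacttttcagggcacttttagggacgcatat
Nodal: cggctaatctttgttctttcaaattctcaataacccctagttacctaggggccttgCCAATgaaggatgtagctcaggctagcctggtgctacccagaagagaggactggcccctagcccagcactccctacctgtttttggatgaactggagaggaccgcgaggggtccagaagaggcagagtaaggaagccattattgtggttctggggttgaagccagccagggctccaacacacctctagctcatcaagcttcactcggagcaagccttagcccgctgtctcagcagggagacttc
In Id2 the capitals are 3 CCAAT matches, 1 GC box and 1 GGCGCC, in Lefty2 they are 1 TATA box and 3 CAGAC, and in Nodal they are 1 CCAAT match.

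Over the whole list, 8 of the 10 genes carried Msl1 reads at 2 times the local level or more within 500 bases of the TSS, all but Nodal and Lefty2, and 46.4% of 21728 protein-coding TSSs did so. Only the Msl1 intervals of Bmp7, Smad7 and Id2 lay above 2, and those of the other genes contained it. At 3 times the count was 2 of 10, beside 23.8% of the TSSs, so at the TSSs used the higher share of the list holds at the lower threshold and not at this one. From its RefSeq start, given below, Id3 also passed 3 times, at 4.05. The share of all TSSs was not counted from RefSeq starts. None of the 10 reached 2 times for Nsl1 within 500 bases, where 41.7% of the TSSs did. The Nsl1 intervals of Tdgf1, Bmp4, Bmp7, Id1 and Id2 contained 2. Within 2 kb the Msl1 count was again 8 of 10, now all but Lefty1 and Lefty2, against 29.6% of all TSSs, and the Nsl1 count was 0 of 10 against 16.8%. The 8 genes with Msl1 at 2 times or more within 2 kb all had Nsl1 under 2 times, a combination found at 19.3% of all TSSs. The 21728 TSSs are those with a local level of at least 1 read per kb in both libraries. All 10 genes passed this filter, which does not use the reads at the TSS.

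The median ratio of the 10 genes within 500 bases was 2.28 for Msl1, beside 1.87 over all TSSs, and 1.29 for Nsl1, beside 1.72 over all TSSs. Within 2 kb it was 2.66 for Msl1 against 1.54 over all TSSs, and 1.29 for Nsl1 against 1.35. The local level itself was higher around these genes than genome-wide. Its median was 13.1 Msl1 reads per kb around the 10 genes, 10.1 around all TSSs and 7.34 over the genome, and for Nsl1 it was 14.8, 12.1 and 9.37 reads per kb. The genome-wide level divides by full chromosome lengths, including positions where no unique read can align, which lowers it. Against the genome-wide level all 10 genes passed 2 times for Msl1 in both windows, as did 61.0% of all TSSs within 500 bases and 53.9% within 2 kb. For Nsl1, 7 passed within 500 bases and 8 within 2 kb, where 55.4% and 39.0% of all TSSs passed, so that only Bmp4 and Id3 then combined Msl1 at 2 times or more with Nsl1 below it. At this level the combination was found at 18.96% of all TSSs, so the 2 of 10 genes are close to the background share. The low Nsl1 counts are thus counts against the surroundings of each gene.

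**Figure D1:**
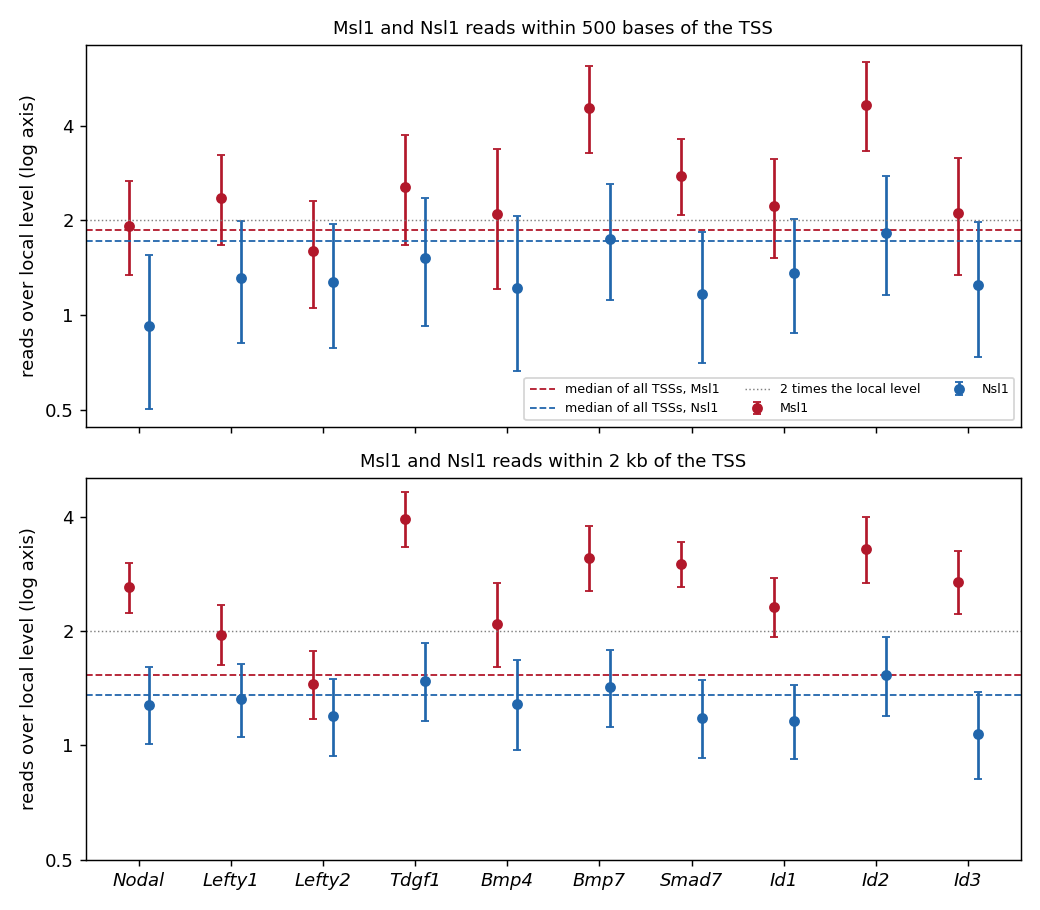
Reads of Msl1 (red) and Nsl1 (blue) at the TSSs of the 10 genes divided by the local level of the same library, within 500 bases (top) and within 2 kb (bottom), on a log axis. Points are the single library of each antibody, bars are exact 95% counting intervals, dashed lines are the medians over 21728 TSSs (1.87 and 1.72 at the top, 1.54 and 1.35 at the bottom) and the dotted line is 2 times the local level. Every blue point lies below the dotted line, and 8 of the 10 red points lie above it in each panel.

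Among the ligands, Nodal (chromosome 10, plus strand, TSS at 60880720 in mm9, 3 exons over 7367 bases) held 36 Msl1 reads within 500 bases, 1.92 times the local level (1.34 to 2.67), and 196 reads within 2 kb, 2.61 times (2.24 to 3.03). Its Nsl1 reads numbered 14 within 500 bases, 0.919 times (0.501 to 1.55), and 78 within 2 kb, 1.28 times (1.01 to 1.61). Nodal thus had the lowest Nsl1 ratio of the 10 genes within 500 bases of the TSSs used, though Id3 was at 0.762 times from its RefSeq start, given below. The Msl1 ratio of Nodal was higher in the wide than in the narrow window. Only 8 of the 36 Msl1 reads lay upstream of the TSS, and 144 reads followed from 500 to 2000 bases downstream. Per base this stretch held 2.67 times as many reads as the 500-base window (1.84 to 3.96). This was the highest such downstream ratio of the list, but its interval overlaps that of Tdgf1, at 2.60 (1.69 to 4.12). Positions of the window whose sequence is not unique were not corrected for.

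Bmp4 (chromosome 14, minus strand, TSS at 47010344, 4 exons) had the fewest reads. Within 500 bases it held 17 Msl1 reads, 2.09 times the local level (1.21 to 3.38), and 14 Nsl1 reads, 1.22 times (0.666 to 2.06). Within 2 kb it held 68 Msl1 reads, 2.10 times (1.61 to 2.69), and 59 Nsl1 reads, 1.29 times (0.974 to 1.68). Both Msl1 intervals contain 2, so Bmp4 lies at the threshold rather than clearly above it. Bmp7 (chromosome 2, minus strand, TSS at 172765822, 7 exons over 72310 bases) held 43 Msl1 reads within 500 bases, 4.55 times (3.27 to 6.18), a ratio above that of 94.3% of TSSs. Its 118 Msl1 reads within 2 kb gave 3.12 times (2.55 to 3.79). The 24 Nsl1 reads of Bmp7 within 500 bases gave 1.75 times (1.12 to 2.62), close to the median of all TSSs, and the 78 within 2 kb gave 1.42 times (1.12 to 1.79).

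Within 2 kb the antagonists had the lowest Msl1 ratios of the list, and within 500 bases Lefty2 alone was lowest. Lefty2 (chromosome 1, plus strand, TSS at 182823239, 4 exons) held 28 Msl1 reads within 500 bases, 1.59 times the local level (1.05 to 2.31), and 102 within 2 kb, 1.45 times (1.18 to 1.77), below the median of all TSSs in both windows. Its Nsl1 values were 21 reads and 1.27 times (0.783 to 1.95), and 79 reads and 1.19 times (0.940 to 1.5). Lefty1, its near copy on the same chromosome (TSS at 182865153), held 39 Msl1 reads within 500 bases, 2.35 times (1.66 to 3.23), and 130 within 2 kb, 1.96 times (1.63 to 2.35), just under the threshold. The Nsl1 reads of Lefty1 were 22 within 500 bases, 1.31 times (0.816 to 1.99), and 89 within 2 kb, 1.32 times (1.06 to 1.64). The Msl1 intervals of the 2 Lefty genes overlap in both windows. With other TSSs left out of the local level, the Msl1 ratio within 2 kb was 2.24 at Lefty1, which then passed 2 times, and 1.78 at Lefty2. Bmp4, at 2.22, was then below Lefty1, and the Msl1 intervals of Lefty1 and Bmp4 within 2 kb given above also overlap.

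Tdgf1, the co-receptor gene (chromosome 9, minus strand, TSS at 110848662, 6 exons over 6549 bases), had the highest Msl1 ratio within 2 kb. It held 27 Msl1 reads within 500 bases, 2.55 times the local level (1.67 to 3.74), and 167 within 2 kb, 3.95 times (3.33 to 4.66), more than 98.6% of TSSs. Its Nsl1 reads were 20 within 500 bases, 1.52 times (0.923 to 2.35), and 78 within 2 kb, 1.48 times (1.16 to 1.86). The lower bound of the Tdgf1 interval for Msl1 within 2 kb lies above the upper bounds of both Lefty genes, Bmp4, Nodal, Id1 and Id3. Counted per alignable position the Tdgf1 ratio was 3.63, still the highest of the list, but no interval was computed for it. Against the genome-wide level it was 5.69, below Nodal (6.68) and Smad7 (8.14) and above the other genes. Smad7, the inhibitory Smad (4 exons over 28407 bases), held 55 Msl1 reads within 500 bases, 2.77 times (2.08 to 3.62), and 239 within 2 kb, 3.01 times (2.62 to 3.45), the largest number of reads of the list. In the Nsl1 library it held 19 and 77 reads, 1.17 times (0.701 to 1.83) and 1.18 times (0.930 to 1.49). The TSS of a transcript on the opposite strand, RP24-263P17.1, lies 441 bases upstream of Smad7, the only TSS of another gene within 2 kb of the 10 TSSs. It is read away from Smad7.

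The Id genes, targets of BMP signalling, were all at 2 times or more for Msl1 in both windows, though the intervals of Id1 in both and of Id3 within 500 bases contain 2. Id2 (chromosome 12, minus strand, TSS at 25780957, 3 exons) led with 41 Msl1 reads within 500 bases, 4.65 times the local level (3.31 to 6.37), and 116 within 2 kb, 3.29 times (2.69 to 4.01). Id1 (chromosome 2, plus strand, TSS at 152561987, a single exon in the transcript used) held 33 reads, 2.22 times (1.52 to 3.13), and 138 reads, 2.32 times (1.93 to 2.77). Id3 (chromosome 4, plus strand, TSS at 135699412, 3 exons) held 24 reads, 2.11 times (1.34 to 3.15), and 123 reads, 2.70 times (2.22 to 3.26). With all reads kept, the ratio within 500 bases was 1.91 at Id3 and also at Bmp4, under the threshold, and 2.31 at Nodal, over it. In the narrow window the interval of Id2 lies above those of Id1 and, at the TSS used, of Id3, whereas within 2 kb it overlaps those of both.

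Nsl1 at the same 3 genes stayed between 1 and 2 times. Id2 held 23 Nsl1 reads within 500 bases, 1.83 times (1.15 to 2.76), the highest Nsl1 ratio of the list, and 77 within 2 kb, 1.53 times (1.20 to 1.93). Id1 held 25 and 85 reads, 1.36 times (0.879 to 2.02) and 1.16 times (0.921 to 1.44). Id3 held 18 and 62 reads, 1.24 times (0.734 to 1.97) and 1.07 times (0.816 to 1.38), the lowest Nsl1 ratio within 2 kb. For Id3 the RefSeq promoter, located in mm9 by an exact match of its sequence, starts 325 bases downstream of the TSS used. Counted there, Id3 held 46 Msl1 reads within 500 bases, 4.05 times (2.94 to 5.44), and 11 Nsl1 reads, 0.762 times (0.379 to 1.37), and its Msl1 interval then overlaps that of Id2. RefSeq promoters were at hand for 5 of the 10 genes, and in the other 4, Nodal, Tdgf1, Bmp4 and Id2, the start was the one used here.

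The position of the reads differed between the antibodies. In the 10 genes together, the 500 bases downstream of the TSS held 224 Msl1 reads and the 500 bases upstream held 119, a ratio of 1.88 (1.5 to 2.37). The Nsl1 reads were 103 and 97, a ratio of 1.06 (0.797 to 1.42). No such ratio was computed over all TSSs. These sums join unlike genes, so their intervals cover counting error of the sum and not the spread between genes. For Msl1, Smad7 held 49 reads downstream and 6 upstream, and Nodal held 28 and 8. Lefty2 (11 and 17), Bmp4 (7 and 10) and Id3 (11 and 13) held more upstream, and the other genes held more downstream. Summed over the 10 genes, 756 Msl1 reads lay from 500 to 2000 bases downstream, per base 1.47 times (1.29 to 1.68) the 343 reads within 500 bases. The Nsl1 reads there were 261, per base 0.871 times (0.722 to 1.05) the 200 within 500 bases. The median downstream ratio of the single genes was 1.46 for Msl1 and 0.890 for Nsl1, and over all TSSs it was 0.824 and 0.650. The Msl1 ratio was 2.67 at Nodal, 2.60 at Tdgf1, 2.09 at Id3 and 1.66 at Smad7, each with an interval above 1. For Id3 this turned with the start used: from the RefSeq start the ratio was 0.696 (0.455 to 1.07), with 48 reads downstream and 46 within 500 bases, and the median over the 10 genes was then 1.21. The ratio was 1.48 at Id1, 1.45 at Bmp4, 0.977 at Lefty2, 0.807 at Bmp7, 0.804 at Lefty1 and 0.732 at Id2, each with an interval that includes 1. The reads within 500 bases are the denominator of this ratio, so a gene with many reads at the TSS, such as Id2 or Bmp7, has a low ratio in part by construction. The share of positions with a 50-base sequence unique in mm9 was 84.7% within 500 bases at Nodal and 89.0% at Tdgf1. Within 2 kb it was 93.9% and 97.2%, and the ratio was not corrected for this. In Smad7 further annotated starts lie 1354 and 1461 bases downstream. The share of all TSSs with an interval above 1 was not computed.

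**Figure D2:**
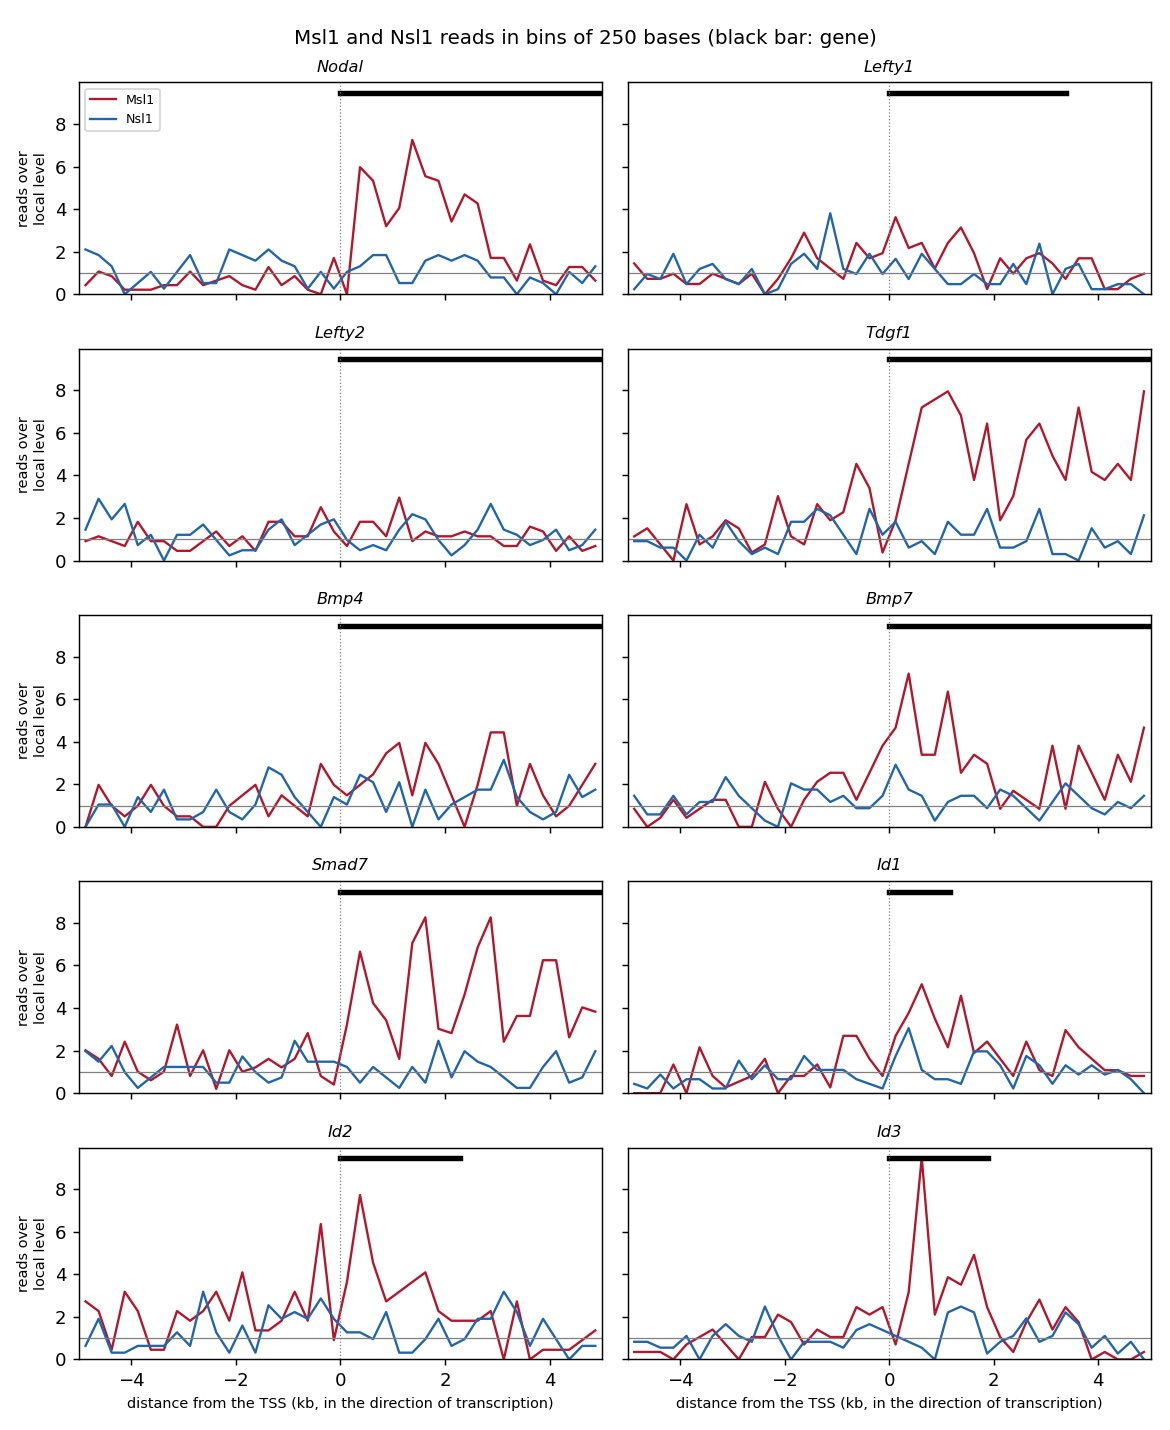
Msl1 (red) and Nsl1 (blue) reads in bins of 250 bases from 5 kb before to 5 kb after the TSS of each of the 10 genes, on a linear axis of reads over the local level of the same library. The black bar marks the gene, drawn to 5 kb where it is longer, and the grey line marks the local level. Msl1 rises above the grey line downstream of the TSS of Nodal, Tdgf1, Bmp7 and Smad7 and over the short genes Id1, Id2 and Id3, and stays close to it at Lefty2. Nsl1 varies around the line in all 10 panels, with its highest bin at 3.8 times, upstream of Lefty1.

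The window of 251 bases with the most Msl1 reads within 2 kb had its centre downstream of the TSS in all 10 genes, as it did at 67.8% of all TSSs. It lay at 1400 bases in Nodal with 40 reads, 8.50 times the local level, at 1275 bases in Tdgf1 with 26 reads, 9.80 times, and at 575 bases in Id3 with 30 reads, 10.5 times. Id3 has another annotated start at 367 bases and its RefSeq start at 325 bases, so this window lies close to a start. In Smad7 it lay at 1425 bases with 44 reads, 8.83 times, between further annotated starts of Smad7 at 1354 and 1461 bases. Id2 followed at 300 bases with 8.60 times, Bmp7 at 400 with 7.59 times, Id1 at 775 with 5.90 times, Bmp4 at 700 with 4.42 times, Lefty1 at 150 with 3.85 times and Lefty2 at 1150 with 3.18 times. These windows were chosen by their reads, so their heights are a description only. The corresponding Nsl1 windows had their centres from -1450 bases (upstream, in Tdgf1) to 1250 bases (downstream, in Lefty2), upstream in 4 genes and downstream in 6, against 48.3% downstream over all TSSs, and held 10 to 16 reads each.

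The Msl1 windows of Nodal and Tdgf1 both lay in the first intron, and their sequences are printed since they show where Msl1 reads were densest in a ligand and in its co-receptor. This choice was made after their values were seen. The window of Nodal is chr10:60881995-60882245 on the plus strand and that of Tdgf1 is chr9:110847262-110847512 on the minus strand, both in mm9, with capitals for the same 6 motifs on either strand.
Nodal, first intron: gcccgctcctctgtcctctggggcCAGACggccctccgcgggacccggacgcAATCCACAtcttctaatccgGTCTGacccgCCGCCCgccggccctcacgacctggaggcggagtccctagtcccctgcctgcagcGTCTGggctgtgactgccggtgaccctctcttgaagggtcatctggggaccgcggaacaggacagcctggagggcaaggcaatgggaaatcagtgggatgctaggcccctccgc
Tdgf1, first intron: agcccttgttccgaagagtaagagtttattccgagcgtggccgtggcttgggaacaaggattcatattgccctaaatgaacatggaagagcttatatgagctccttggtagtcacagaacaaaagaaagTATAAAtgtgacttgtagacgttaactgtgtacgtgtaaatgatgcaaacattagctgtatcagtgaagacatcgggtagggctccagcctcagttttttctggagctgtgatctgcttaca
In Nodal the capitals are 1 match to AATNCACA, 3 to CAGAC and 1 GC box. Windows of this length at the same distance from all TSSs held AATNCACA in 5.26%, CAGAC in 43.5% and the GC box in 5.58% of 22337 cases. In Tdgf1 there was 1 match, TATAAA, found in 16.9% of such windows. A match is a description of the letters and says nothing about which factor is bound.

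Along the genes, Msl1 declined from start to end in most of the longer ones, and other genes were not measured in this way. Each gene was divided into 3 equal parts, its start, middle and end. In Nodal the reads per base were 4.43 times the local level in the start of the gene (3.81 to 5.13), 1.63 in the middle and 1.72 in the end, while the stretch from 2000 to 500 bases upstream held 0.569 times (0.324 to 0.926), fewer than the surroundings. Tdgf1 went from 5.51 (4.54 to 6.63) to 4.77 and 2.64 and fell to 0.521 (0.259 to 0.936) in the 2 kb after its end. Smad7 went from 3.52 (3.22 to 3.85) to 1.69 and 1.49, and its first part holds further annotated starts at 1354, 1461, 2447 and 7385 bases. Bmp4 was nearly level, at 2.43, 2.12 and 2.22. Another gene, Gm15222, starts inside it. The 1 kb window centred 50 bases from that start, 3100 bases into Bmp4, held 25 Msl1 reads, 3.08 times the local level. In Bmp7, the longest gene, the start held 1.55 times (1.36 to 1.75) and the other parts 1.09 and 1.14. The middle of Bmp7 lies wholly within the region that sets its local level, so its value is near 1 in part by construction. In reads per kb the 3 parts held 14.6, 10.2 and 10.8.

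The short Id genes were covered throughout. Msl1 stood at 2.96, 4.52 and 3.30 times the local level in the start, middle and end of Id1, at 5.21, 3.12 and 2.68 in Id2, and at 3.47, 4.17 and 4.17 in Id3. The Lefty genes had lower values. Lefty1 went from 2.30 (1.66 to 3.12) through 1.88 to 1.39 (0.906 to 2.05), and Lefty2 from 1.48 through 1.14 to 0.712. The start and end intervals of Lefty1 overlap. The sequences that Lefty1 shares with Lefty2 lie in its middle and end, and these values were not corrected for missing reads there. Beyond the first 500 bases, the whole remaining gene held 4.40 times the local level in Tdgf1 (3.84 to 5.03), 4.66 in Id3 (3.63 to 5.90), 2.56 in Nodal (2.27 to 2.89), 2.19 in Smad7 (2.03 to 2.35) and 1.10 in Lefty2 (0.893 to 1.34). For Nsl1 the same stretches held between 0.745 times (Id1, 0.340 to 1.42) and 1.39 times (Id3, 0.918 to 2.01). The start of Id1 was the only part of any of the 10 genes with Nsl1 at 2 times or more, 17 reads and 2.40 times (1.40 to 3.86). For the genes longer than 5 kb (Nodal, Lefty2, Tdgf1, Bmp4, Bmp7 and Smad7) the gene runs into the region that sets the local level.

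**Figure D3:**
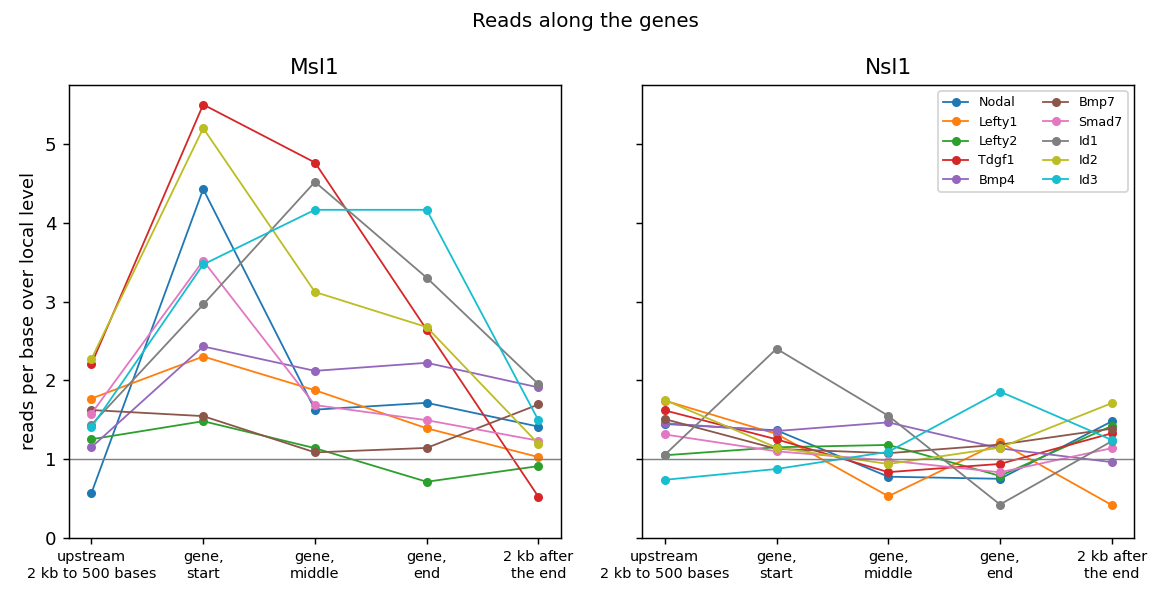
Msl1 (left) and Nsl1 (right) reads per base over the local level in 5 stretches of each of the 10 genes, from 2 kb upstream to 2 kb after the end with the 500 bases before the TSS left out, on a linear axis with 1 line per gene. The highest Msl1 values are those of the start of Tdgf1 (5.51) and of Id2 (5.21), and Nsl1 passes 2 only in the start of Id1 (2.40).

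Set directly against each other, the libraries gave more Msl1 than Nsl1 reads per read of the library within 2 kb of each of the 10 TSSs, as they did at 63.1% of the 21280 TSSs with at least 20 reads. The ratio was 3.96 at Smad7 (3.05 to 5.19), higher than at 99.8% of TSSs, 3.21 at Nodal (2.46 to 4.23), 2.73 at Tdgf1 (2.08 to 3.63), 2.53 at Id3 (1.85 to 3.50) and 2.07 at Id1 (1.57 to 2.75). These 5 genes were at 2 or more, as were 9.66% of those TSSs. None of the 10 was at 0.5 or below, as 2.26% were. The ratio was 1.93 at Bmp7, 1.92 at Id2, 1.87 at Lefty1, 1.65 at Lefty2 and 1.47 at Bmp4 (1.02 to 2.12). It compares 2 libraries and is not divided by the local level.

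When each library was first divided by its own local level, the Msl1 to Nsl1 ratio within 2 kb was 2.67 at Tdgf1 (2.0 to 3.59), 2.54 at Smad7 (1.94 to 3.36), 2.52 at Id3 (1.82 to 3.52), 2.19 at Bmp7, 2.15 at Id2, 2.04 at Nodal and 2.0 at Id1. It was 1.63 at Bmp4 (1.11 to 2.38), 1.48 at Lefty1 (1.11 to 1.98) and 1.22 at Lefty2 (0.889 to 1.67). Lefty2 was the only one of the 10 whose interval included 1, and the interval lay above 1 at the other 9 genes and at 22.2% of all TSSs tested. Within 500 bases the same ratio ran from 1.25 at Lefty2 to 2.60 at Bmp7, and the interval lay above 1 at Nodal, Lefty1, Bmp7, Smad7 and Id2, which are 5 of the 10, and at 11.7% of all TSSs. At Lefty2, Tdgf1, Bmp4 and Id1 a difference between the antibodies in the narrow window was not detectable at this depth. At Id3 the interval included 1 at the TSS used (0.876 to 3.33), whereas at the RefSeq start the Msl1 and Nsl1 intervals given above do not overlap.

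**Figure D4:**
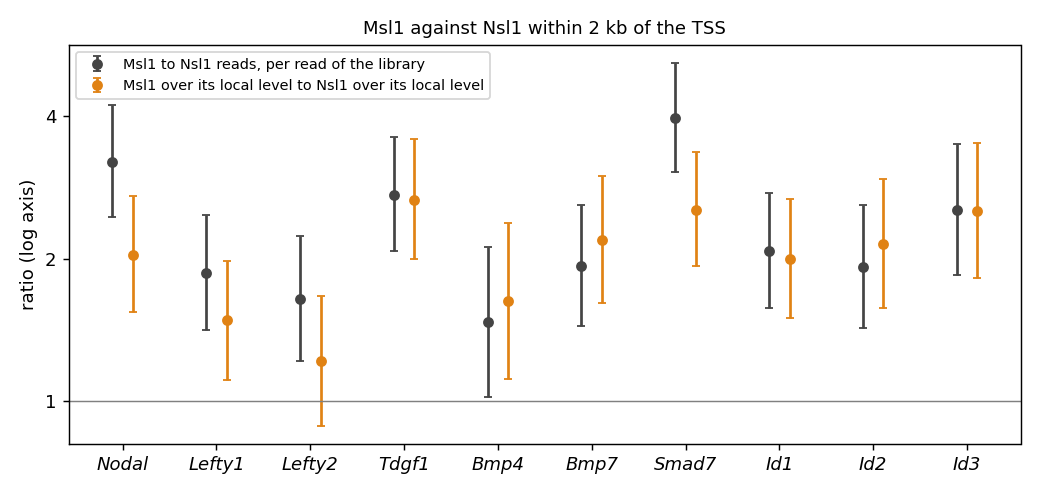
Msl1 against Nsl1 within 2 kb of the TSS of the 10 genes, on a log axis, as reads per read of the library (grey) and with each library divided by its own local level (orange). Points are single values from 1 library per antibody and bars are exact 95% intervals. Grey points run from 1.47 (Bmp4) to 3.96 (Smad7), and of the orange intervals only that of Lefty2 crosses 1.

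Some of these genes have copies elsewhere, and only reads that align once were kept by the authors. The share of positions within 500 bases at which a sequence of the read length occurs once in mm9 was 84.7% for Msl1 and 80.1% for Nsl1 at Nodal, 89.0% and 87.0% at Tdgf1, and 97.1% to 100% at the other 8 genes. Lefty1 and Lefty2 share 331 sequences of 50 bases and 457 of 36 bases within their genes, and the unique share was 89.3% and 84.7% along Lefty1 and 93.4% and 89.3% along Lefty2. Tdgf1 shares 395 sequences of 50 bases with a stretch at chr16:3730371-3732656. Counted per alignable position, Nodal reached 2.15 times for Msl1 within 500 bases, and with other TSSs left out of the local level it reached 2.11 times. Id2 shares 94 sequences of 36 bases with a stretch at chrX:97780440-97781423. Reads from positions that are not unique are missing from the values.

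Away from the TSSs, the windows of 1 kb with the most reads from 2 to 50 kb often belonged to other genes. The highest Nsl1 window around Lefty2 lay at -143 bases from the start of BC031781 with 105 reads, 6.35 times the local level of Lefty2 (5.16 to 7.74). Around Id1 the highest windows of both libraries lay at Mcts2, with 136 Nsl1 reads, 7.42 times (6.18 to 8.84), and 55 Msl1 reads, 3.70 times. Around the other 8 genes the highest Nsl1 window ranged from 2.10 times the local level at Bmp4 to 3.73 times at Id3. These windows were picked as the highest of many, so their ratios are a description. The window with most Msl1 reads lay at Eif4ebp2 around Nodal (94 reads, 5.01 times) and at E2f2 around Id3 (41 reads, 3.60 times).

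In Tdgf1, Bmp7 and Smad7 the highest Msl1 window lay in the gene itself. It held 65 reads, 6.15 times the local level (4.71 to 7.91), 3200 bases into Tdgf1, where Nsl1 had 12 reads and 0.911 times. In Smad7 it held 112 reads, 5.64 times (4.62 to 6.83), 2501 bases after the TSS used and 54 bases after another annotated start of Smad7. In Bmp7 it held 27 reads, 2.86 times (1.87 to 4.19), at 4500 bases. The highest Nsl1 window of the Bmp7 region also lay within Bmp7, in an intron 25900 bases from the TSS, with 49 reads, 3.58 times (2.63 to 4.76), and Msl1 held 26 reads there, 2.75 times. This was the only window inside one of the 10 genes and over 2 kb from any TSS with Nsl1 above 2 times among the highest windows.

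The promoters differ in base composition. The ratio of observed to expected CpG within 500 bases of the TSS was 0.269 at Lefty1, 0.278 at Lefty2, 0.443 at Bmp4, 0.472 at Nodal, 0.597 at Id1, 0.602 at Tdgf1, 0.658 at Id2, 0.672 at Id3, 0.821 at Bmp7 and 0.851 at Smad7, and the median over all TSSs was 0.569. Of the 10277 TSSs at 0.6 or more, 53.6% had Msl1 at 2 times or more within 2 kb and 28.8% had Nsl1 at that level. Of the 11450 TSSs under 0.6 the shares were 8.11% and 6.03%. The combination of Msl1 at 2 times or more with Nsl1 below it was found at 34.4% of the first and 5.76% of the second class. All 5 listed genes of the first class (Tdgf1, Bmp7, Smad7, Id2 and Id3) and 3 of the 5 of the second (Nodal, Bmp4 and Id1) had this combination. CpG content thus moved with the reads over all TSSs, and its part in the values of the 10 genes was not tested.

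Of the 6 motifs, read on both strands over the 300 bases of each promoter, CCAAT was found in 6 of the 10 genes (Nodal, Lefty1, Bmp7, Id1, Id2 and Id3) and in 37.3% of 21727 promoters. GGGCGG was found in 6 (Tdgf1, Bmp4, Bmp7, Smad7, Id1 and Id2) and 45.6%, and CAGAC in 6 (Lefty1, Lefty2, Tdgf1, Bmp7, Id1 and Id3) and 48.2%. TATAAA was found in Lefty1, Lefty2 and Id1 and in 13.2% of promoters, and GGCGCC in Smad7, Id2 and Id3 and in 15.3%. AATNCACA, present in the intronic window of Nodal above, was in none of the 10 promoters and in 3.22% of all. Lefty1 holds 4 and Lefty2 holds 3 matches to CAGAC, the most of the list.

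Like the 10 genes, a wider list of the pathways was chosen with earlier results of these data known, so its shares are a description only. Its 55 further genes were counted in the same way, and all passed the filter. Within 500 bases 37 of them (67.3%) had Msl1 at 2 times or more, beside the 46.4% of all TSSs, and 11 (20%) had Nsl1 at that level, beside 41.7%. Within 2 kb the counts were 30 (54.5%) and 2 (3.64%), beside 29.6% and 16.8%, and 28 genes (50.9%) had Msl1 at 2 times or more with Nsl1 below it, beside 19.3%. The median ratios within 500 bases were 2.56 for Msl1 and 1.42 for Nsl1. By role, Msl1 reached 2 times within 500 bases at 7 of 12 ligands, 8 of 10 receptors, 4 of 7 Smads, 2 of 5 nuclear partners and corepressors, 7 of 11 inhibitors, 2 of 3 co-receptor and convertase genes, and 7 of 7 further targets. Nsl1 did so at 2 ligands, 3 receptors, 3 Smads and 3 inhibitors, and at none of the other classes.

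The highest Msl1 ratios of the wider list within 500 bases were those of Bmpr2, the type II BMP receptor (61 reads, 5.70 times, 4.32 to 7.38), Smad3, with Smad2 a Smad of the Nodal branch (68 reads, 5.51 times, 4.25 to 7.04), and Inhbb, an activin subunit (55 reads, 5.26 times, 3.93 to 6.91). The intervals of all 3 overlap those of Id2 and Bmp7. The lowest were those of Bmp5 (4 reads, 0.597 times, 0.162 to 1.54), the type I receptor gene Acvr1 (7 reads, 0.674 times) and Smad4, the common Smad (8 reads, 0.816 times).

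For Nsl1 the order was another one. Smad4 came first with 31 reads and 3.0 times (2.02 to 4.28), followed by the receptor gene Acvr1c with 27 reads and 2.92 times (1.92 to 4.29) and the ligand gene Bmp8a with 35 reads and 2.87 times (1.99 to 4.01). Bmp8a has a near copy, Bmp8b, so its value is uncertain. Lowest were Acvr1 (5 reads, 0.431 times, 0.140 to 1.01), the ligand gene Bmp2 (6 reads, 0.595 times) and the corepressor gene Ski (10 reads, 0.662 times). Smad4 thus stood among the 3 lowest for Msl1 and highest for Nsl1 in the narrow window, the opposite of the pattern at Bmpr2, where Nsl1 was at 0.926 times. Within 2 kb of the Smad4 TSS the Msl1 ratio was 2.22 and the Nsl1 ratio 1.72.

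**Figure D5:**
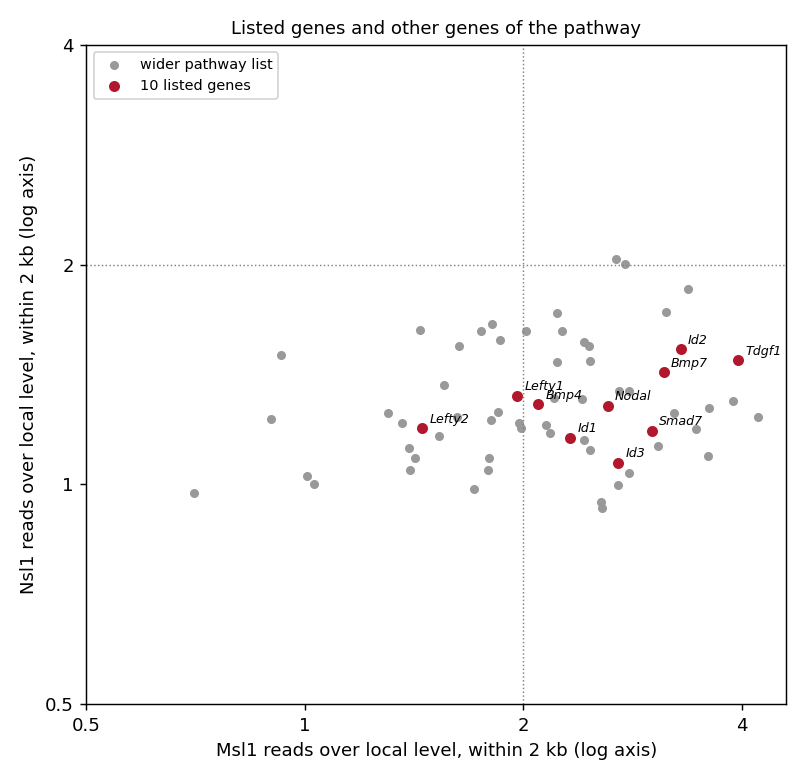
Nsl1 against Msl1 reads within 2 kb of the TSS, each over its local level, on log axes, for the 10 listed genes (red, named) and the 55 genes of the wider list (grey). Dotted lines mark 2 times the local level. The lower right field, with Msl1 at 2 times or more and Nsl1 below it, holds 8 of the 10 listed and 28 of the 55 other genes.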

How the data were processed

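Both libraries are ChIP-seq of mESCs. Single-end reads had been mapped to mm9 by the authors, who kept unique reads, and the submitters' processing notes name Bowtie 0.12.7 and CASAVA 1.8.2. The authors deposited 1 line per read with a score, which was 255 throughout and was not used. Mitochondrial reads were left out. Counting used Python 3.11.15 with numpy 2.4.6, scipy 1.17.1, numba 0.67.0 and pandas 2.3.3, and plots used matplotlib 3.10.9. Each read was moved to the middle of its fragment, by 105 bases for Msl1 and 65 bases for Nsl1, as given by the strand cross-correlation of its own library. TSSs came from a GENCODE annotation of mm9 and, for the check of starts, from RefSeq promoters of GRCm38, while promoter letters were read from the mm9 genome. Alignable positions were those whose sequence of the read length occurs once in that genome. No Input was used here. Depth gave between 14 and 55 reads per gene and library within 500 bases.

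No test between samples was possible. Calls are at 2 times the local level, set beside the share of all TSSs. Of the wider list, the 3 highest and the 3 lowest genes per library within 500 bases are named, and promoters are printed for the highest and lowest of the 10 genes per library. The 10 genes, the wider list and the alternatives were chosen with earlier results of these data known. Alternatives were all reads kept, another shift, the genome-wide level, other TSSs left out of the level, the most upstream TSS, alignable positions, other windows and other thresholds. The counting was tested on simulated data.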

Additional observations from a re-analysis of the deposited data

How the results depend on the processing

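The Msl1 count of 8 of 10 genes within 500 bases was 7 with all reads (46.2% of all TSSs) and 8 with a shift of 100 bases (46.4%). It was 10 at the genome-wide level (61.0%), 9 with other TSSs left out (50.3%) and 8 at the most upstream TSS (45.6%). For alignable positions (9 genes) and a window of 1 kb (8 genes) no share of all TSSs was computed. At 1.5 times the count was 10, where 61.5% of all TSSs passed, and at 3 times it was 2, where 23.8% passed. The Nsl1 count of 0 was 3 at 1.5 times, where 58.4% of all TSSs passed. Against the genome-wide level the Nsl1 counts were 7 within 500 bases and 8 within 2 kb, where 55.4% and 39.0% of all TSSs passed. The median ratios within 500 bases were then 4.70 for Msl1 and 2.19 for Nsl1. The count with Msl1 at 2 times and Nsl1 below it was 2, beside 18.96% of all TSSs. The genome-wide level is lower than the local ones, in part because it divides by full chromosome lengths. The alternatives of this combined count, those of single genes within 2 kb and the RefSeq start of Id3 were added after the data were seen. No other alternative moved a count by more than 1.5 times. No paired analysis was possible because each antibody had 1 library, and no library could be left out. Of 244 values of single genes under an alternative, 215 lay within the interval of the value reported and 29 lay outside it. All 10 genes were already counted at their most upstream TSS, so that alternative could change no value. For Msl1 the shift of 100 bases was close to the 105 used. The 29 came from the genome-wide level, except Lefty2 with other TSSs left out and Id3 at its RefSeq start, both for Msl1. None of the 244 changed from 2 times or more to under 1. No Nsl1 value was at 2 or more to begin with, and values that only crossed 2 are not counted here. Depth limits the narrow window most: the 17 Msl1 reads of Bmp4 gave an interval from 1.21 to 3.38 times.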
